A study of Mus musculus with 14 samples.

Results

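Cathepsins are the main proteases of the endolysosomal compartment, and 9 of their genes (Ctse, Ctsd, Ctsa, Ctsb, Ctsh, Ctsk, Ctsl, Ctss and Ctsz) were followed by symbol through a table of 19940 genes in 14 libraries. All 9 passed the filter on low values (a normalised count of at least 10 in at least 7 libraries), which 12096 genes passed. The normalised count is the deposited log2 value turned back into a linear count. The genes were chosen by name around Ctse, which was selected on its measured difference between the genotypes, so that the genotype differences of these 9 genes are given as descriptions that support nothing. Tests are given for other genes and for a division of the libraries that the choice did not use.

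The libraries came from macrophages that had entered the central nervous system at the peak of experimental autoimmune encephalomyelitis, an immune attack on myelin used as a model of multiple sclerosis. Lethally irradiated host mice had received bone marrow of which 50% came from wt CD45.1 donors and 50% from mCAT CD45.2 donors of genotype CCR2creERT2/+ mcat lsl/wt. In mCAT cells a Cre recombinase that tamoxifen activates, driven from the Ccr2 locus, switches on a catalase directed to mitochondria, where it breaks down hydrogen peroxide. Tamoxifen is given as the treatment of every library, wt included, and the labels describe no Cre or mcat allele in the wt donors. The monocyte-derived macrophages were separated by their donor marker into 7 wt and 7 mCAT libraries, with no statement that each came from a separate animal, so that the spread between libraries may be partly technical. Library codes begin with C1 (4 wt and 4 mCAT) or C2 (3 wt and 3 mCAT), and 6 code stems join a wt to an mCAT library, here called a pair. No source used here says what C1, C2 and the stems stand for. The library wt 1 (stem C1_1) and the library mCAT 3 (stem C1_4) have no partner.

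Cathepsins are made as inactive precursors, carried to the lysosome mostly by mannose 6-phosphate receptors and activated there at acid pH. Ctsb, Ctsh, Ctsk, Ctsl, Ctss and Ctsz encode cysteine proteases, Ctsd and Ctse aspartic proteases, and Ctsa a serine carboxypeptidase that also protects other lysosomal enzymes. In macrophages they degrade engulfed material such as myelin, trim proteins for antigen presentation and, when secreted, cut extracellular matrix.

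Estimated depth ranged from 16.4 M reads in wt 7 to 46.9 M reads in mCAT 1, and 11874 to 12780 genes reached a normalised count of 10. All 9 markers of monocyte-derived macrophages were detected in every library, among them Adgre1, Csf1r and Ccr2. Ccr2, also the locus of the Cre, averaged 13742 ± 5015 (SD, n = 7) in wt and 8391 ± 2975 (SD, n = 7) in mCAT and was lower in 6 of 6 pairs, called by limma with pairs as a block, as 0.322% of genes were (-0.80, adjusted p = 0.00587), and not without (-0.68, adjusted p = 0.878). Markers of other cells were present at lower sums than the macrophage markers, which summed to 1021600 to 4473100 in wt and 856710 to 3525200 in mCAT. Neutrophil markers summed to 10186 to 29140 in wt and 10522 to 40213 in mCAT. Of the 6 tested, 1 was called higher in mCAT with pairs as a block, as 0.165% of genes were, and none without. Oligodendrocyte markers summed to 4037 to 8570 in wt and 4608 to 5850 in mCAT, and erythroid markers to at most 8293, in wt 1. Microglial markers summed to 17918 to 80966 in wt and 28106 to 81931 in mCAT. As single genes, the microglial gene P2ry12 averaged 1058 normalised counts, the T cell gene Cd3e 23.4 and the neuronal gene Snap25 between 128 in mCAT and 179 in wt. The endogenous catalase gene Cat averaged 2155 ± 626 (SD, n = 7) in wt and 2831 ± 808 (SD, n = 7) in mCAT. It was higher in mCAT in 6 of 6 pairs (ratios 1.05 to 1.51), as 2.74% of genes were. Limma called Cat neither with pairs as a block (0.29, adjusted p = 0.390) nor without (0.39, adjusted p = 0.878). The library wt 1 was the lowest wt library for 8 of the 9 cathepsins, all but Ctse, and the results it moved most are given with and without it.

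Cathepsin mRNA was abundant in both genotypes. The 9 genes together held 4.48% ± 1.32 (SD, n = 14) of all normalised counts, from 2.16% in wt 1 to 6.93% in mCAT 6. Genes were compared per kilobase of the union of annotated exons, which can exceed the expressed transcript and then lowers the level. That union was 6168 bases for Ctsl, 4743 for Ctsb and 3674 for Ctsa, against 1358 to 2127 for the others. A length error is the same in every library, so that counts of libraries cannot show it. On this scale Ctss led with 476387 normalised counts per kb in wt and 491413 in mCAT. Cathepsin S is an elastin-cutting enzyme that stays active at neutral pH and removes the invariant chain from MHC class II. Ctsd, the aspartic protease of general lysosomal protein breakdown, followed with 214916 per kb in wt and 251542 in mCAT. The exopeptidase gene Ctsz (81140 per kb in wt) came next, then Ctsb (51705), before the aminopeptidase gene Ctsh (32333), Ctsa (15462) and Ctsl (5783). At the low end stood Ctse with 2020 per kb and Ctsk, the collagen-degrading protease best known from osteoclasts, with 1434 per kb in wt.

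The steps in this order were not all beyond the spread between libraries. Ctss lay above Ctsd, Ctsh above Ctsa, Ctsa above Ctsl and Ctsl above Ctsk in 14 of 14 libraries. Ctsd exceeded Ctsz in 13 of 14 libraries, Ctsz exceeded Ctsb in 12 and Ctsb exceeded Ctsh in 13. By their means Ctse and Ctsk changed places between the genotypes, while by library Ctsk lay above Ctse in 9 of 14, which were all 7 mCAT libraries and the wt libraries 2 and 3. Ctse was the eighth of the 9 in wt and the last in mCAT, where it averaged 96.7 per kb against 1652 for Ctsk.

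Promoter sequences, from 250 bases before to 50 after an annotated start site, were at hand from RefSeq (GRCm38.p6) for 6 of the 9 genes. They were searched on both strands for CACGTG, the E-box bound by TFEB and related activators of lysosomal genes, and for letter strings of 3 macrophage factors, GAGGAAGT (PU.1), TGANTCA (AP-1) and GAAA followed after any 2 bases by GAAA (IRF). The 4 sequences shown are the promoters with a match, in capitals. Their relation to the co-variation of these genes described further on was not tested.
Ctsd (chr7:142387778-142388077, minus strand): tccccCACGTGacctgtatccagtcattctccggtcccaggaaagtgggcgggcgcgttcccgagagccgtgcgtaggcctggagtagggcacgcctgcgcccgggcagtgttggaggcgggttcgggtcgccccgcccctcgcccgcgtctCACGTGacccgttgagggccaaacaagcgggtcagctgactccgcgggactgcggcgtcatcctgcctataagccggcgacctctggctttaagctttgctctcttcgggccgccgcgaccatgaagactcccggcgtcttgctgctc
Ctsa, second start site (chr2:164833523-164833822, plus strand): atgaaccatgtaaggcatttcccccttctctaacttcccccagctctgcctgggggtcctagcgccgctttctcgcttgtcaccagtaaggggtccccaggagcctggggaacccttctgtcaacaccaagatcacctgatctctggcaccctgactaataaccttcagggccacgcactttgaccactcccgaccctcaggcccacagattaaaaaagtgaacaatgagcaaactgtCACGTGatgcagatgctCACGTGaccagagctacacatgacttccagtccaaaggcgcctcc
Ctsl (chr13:64370471-64370770, minus strand): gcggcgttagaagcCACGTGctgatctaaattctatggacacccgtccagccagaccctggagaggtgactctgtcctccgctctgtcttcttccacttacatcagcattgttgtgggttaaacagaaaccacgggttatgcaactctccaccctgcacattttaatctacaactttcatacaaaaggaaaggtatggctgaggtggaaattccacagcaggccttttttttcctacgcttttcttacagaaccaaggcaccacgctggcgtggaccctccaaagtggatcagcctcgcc
Ctss (chr3:95526536-95526835, plus strand): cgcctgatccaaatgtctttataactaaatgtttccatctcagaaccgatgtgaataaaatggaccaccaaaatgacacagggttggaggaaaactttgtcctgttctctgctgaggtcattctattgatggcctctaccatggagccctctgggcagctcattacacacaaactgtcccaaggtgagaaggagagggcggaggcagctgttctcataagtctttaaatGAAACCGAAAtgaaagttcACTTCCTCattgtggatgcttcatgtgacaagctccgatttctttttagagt

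Ctsd held CACGTG at 245 and 98 bases before its start, Ctsa at 12 before and 5 after its second start, and Ctsl at 236 before. CACGTG occurred in 7.15% of 32851 promoters of the same length, in 9.80% of the 12012 promoters of tested genes, and in 13 of 48 promoters (27.1%) of other genes for lysosomal hydrolases, membrane proteins and the proton pump. Ctss had no CACGTG but held a PU.1 string, read on the opposite strand, 2 bases before its start and an IRF string 21 bases before it. Those strings occurred in 3.20% and 3.44% of all promoters. None of the 4 strings was found in the windows of Ctsk, Ctsz and the first Ctsa start, and TGANTCA, present in 7.81% of promoters, was found in no cathepsin window. A match is a description of these letters only.

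Ctse (ENSMUSG00000004552, chromosome 1) was the cathepsin by which the set was chosen, through its level in mCAT. Cathepsin E is an intracellular aspartic protease found in endosomes of immune cells and in gastric epithelium. The lowest of the 7 wt libraries held 2334 normalised counts, the median 3314 and the highest 7255. In mCAT the lowest library held 68.9, the median 161 and the highest 450. The groups did not overlap, as for 0.116% of the 12096 genes in this direction, and the highest mCAT library stayed below the lowest wt library by a wide margin. Means were 4294 ± 1946 (SD, n = 7) in wt and 206 ± 134 (SD, n = 7) in mCAT, a difference of -3.79 (SE 0.29) on the deposited log2 scale. Ccr2 was lower in the same mCAT libraries, and its part in the Ctse difference was not tested. In the bulk libraries fewer cells with the transcript and less transcript per cell cannot be told apart.

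Within pairs, mCAT cells kept between 2.13% and 7.28% of the Ctse level of their wt partner. The values were 4.87%, 4.70% and 2.13% for stems C1_2, C1_3 and C1_5, and 4.11%, 7.28% and 4.25% for stems C2_1, C2_2 and C2_4. All 6 pairs went the same way, as 2.63% of the genes tested did, and the remaining share was smallest in C1_5 and largest in C2_2. Ctse transcript was counted in every mCAT library. Chi3l1, a chitinase-like gene of chromosome 1, kept smaller shares, its mCAT level being 0.000558 to 0.00382 times that of the wt partner. Of the 12096 genes tested, Ctse had the second lowest genotype difference, after Chi3l1.

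**Figure D1:**
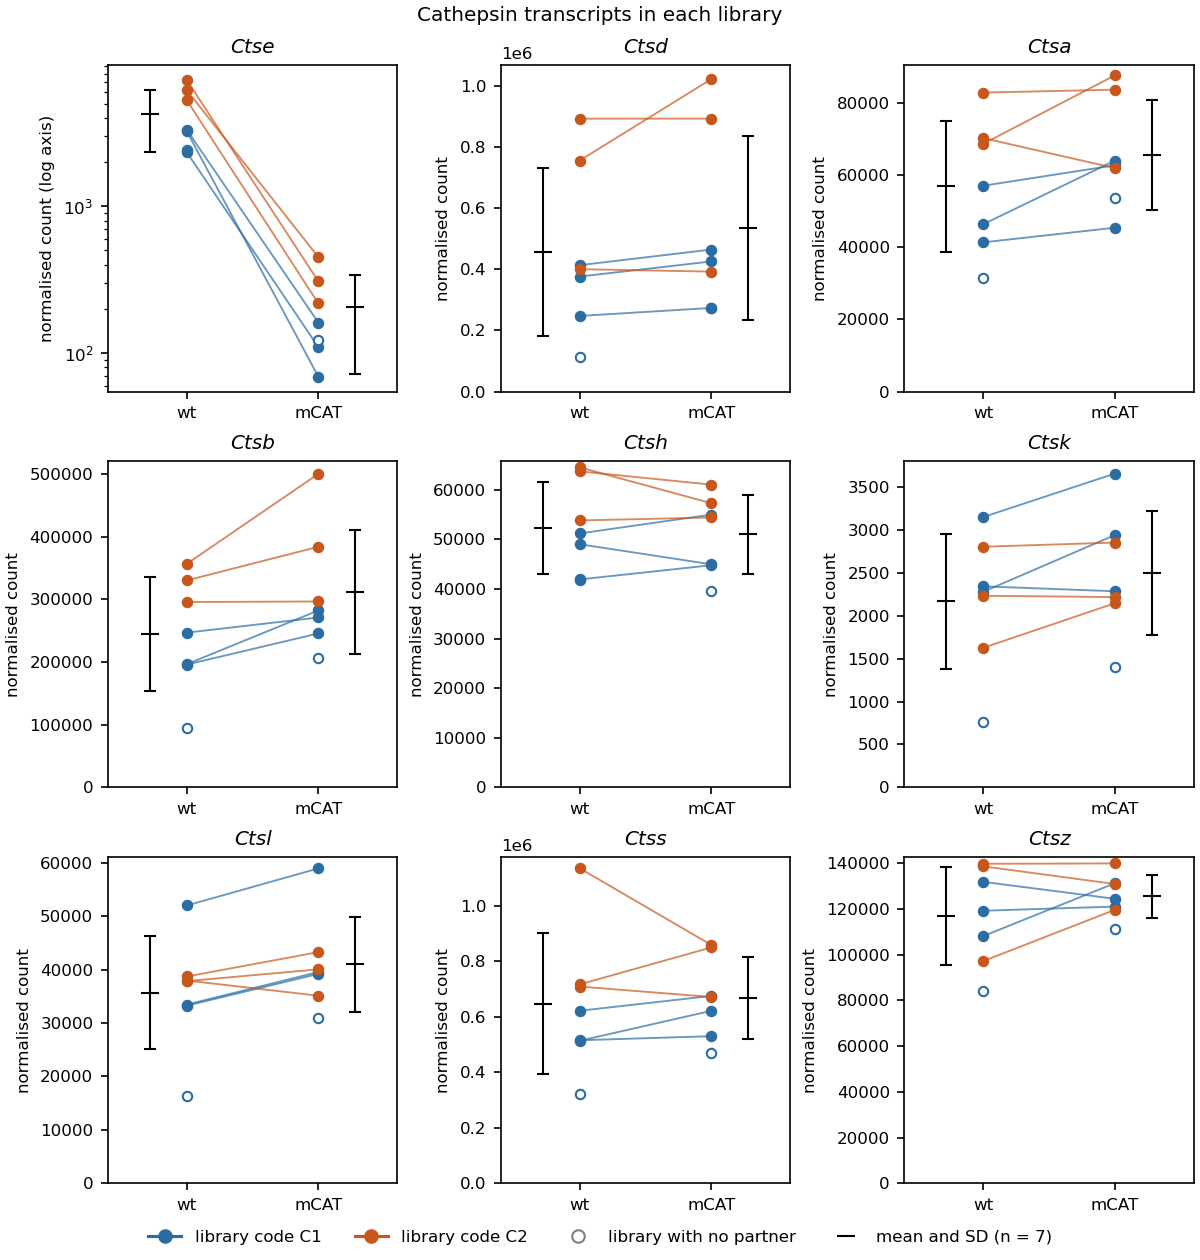
Normalised count of each cathepsin (vertical axes, logarithmic for Ctse and linear from 0 for the others) in wt and mCAT libraries, coloured by library code, with lines joining pairs, open points for the 2 libraries without a partner, and black bars for mean and SD of 7 libraries. Ctse falls from 2334 to 7255 in wt to 68.9 to 450 in mCAT, while the genotypes overlap for the other 8 genes.

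The 8 other cathepsins overlapped between genotypes. Ctsb, a cysteine protease that cuts both inside proteins and from their ends, ranged over 94927, 246848 and 356589 (lowest, median, highest) in wt and over 206883, 282265 and 500072 in mCAT. Each mCAT library held more Ctsb than its wt partner, with ratios of 1.003 to 1.44 and a median of 1.21, a pattern that 2.74% of the 12096 genes showed. Ctsd ranged over 114523, 400277 and 892569 in wt and over 273558, 425531 and 1021850 in mCAT, with a median pair ratio of 1.11. The remaining ratios were close to 1, with medians of 1.13 for Ctsl, 1.10 for Ctsa, 1.09 for Ctsk, 1.06 for Ctss, 1.01 for Ctsz and 0.985 for Ctsh. Single pairs ran from 0.757 for Ctss in C2_4, whose wt library was the one of lowest depth, to 1.44 for Ctsb in C1_3.

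In limma's fit over all genes, 1 of the 9 cathepsins (Ctse, lower in mCAT) was called at an adjusted p under 0.05, where 0.198% of the 12096 genes were called in either direction, 0.116% lower and 0.0827% higher. Since the choice of the set used this contrast, nothing is read from that count. The estimates of the other 8 ran from -0.03 log2 for Ctsh to 0.40 for Ctsb. Without wt 1 several came closer to 0, with Ctsd going from 0.31 to 0.02, Ctsb from 0.40 to 0.19, Ctsl from 0.24 to 0.07, Ctsa from 0.24 to 0.11, Ctsk from 0.24 to 0.03 and Ctsz from 0.12 to 0.04, and Ctss turned from 0.11 to -0.05.

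**Figure D2:**
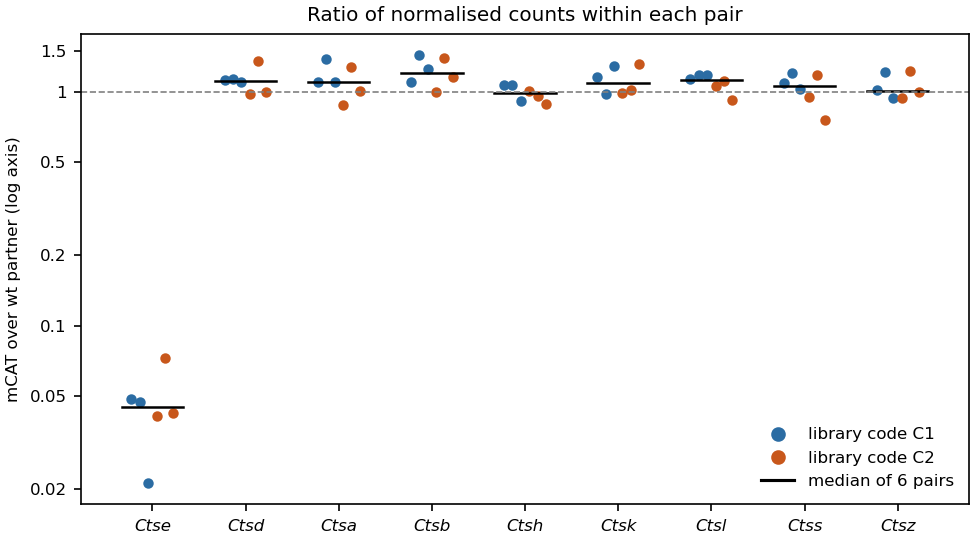
Ratio of the mCAT to the wt normalised count in each of the 6 pairs (logarithmic vertical axis) for the 9 cathepsins, coloured by library code, with black lines at the median. Ctse lies between 0.0213 and 0.0728, and the others lie between 0.757 and 1.44, with Ctsb above 1 in 6 of 6 pairs.

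Ctse lies on chromosome 1, as does Ptprc, the gene whose CD45.1 and CD45.2 alleles mark the donors. The effect of donor genotype, the donor allele of Ptprc and any other chromosome 1 DNA that came with it cannot be told apart for Ctse, since both donor markers follow the genotype without exception. Among the 5 nearest protein-coding neighbours on either side in RefSeq's gene order (GRCm38.p6), 8 were tested. Rab7b, the next gene to Ctse and a small GTPase of late endosomes, was called higher in mCAT, with 3001 ± 1292 (SD, n = 7) in wt and 7014 ± 1399 (SD, n = 7) in mCAT, a log2 difference of 1.30 (SE 0.25, limma adjusted p = 0.0411). The 2 groups of Rab7b did not overlap (at most 4746 in wt, at least 4763 in mCAT), as for 0.124% of genes. On the other side Fam72a, Srgap2, Ikbke and Rassf5 had differences of -0.27, -0.28, -0.41 and 0.26 and were not called. The anion transporter gene Slc26a9, present at 31.4 counts in wt and 6.48 in mCAT, was lower in 6 of 6 pairs and not called (adjusted p = 0.412), and Slc41a1 (0.15) and Rab29 (-0.10) were not called either. Around the 8 other cathepsins, none of 39 tested neighbours was called in either fit. Over all genes 0.198% were called without pairs and 0.322% with pairs as a block, so that no call among 39 is near the background.

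**Figure D3:**
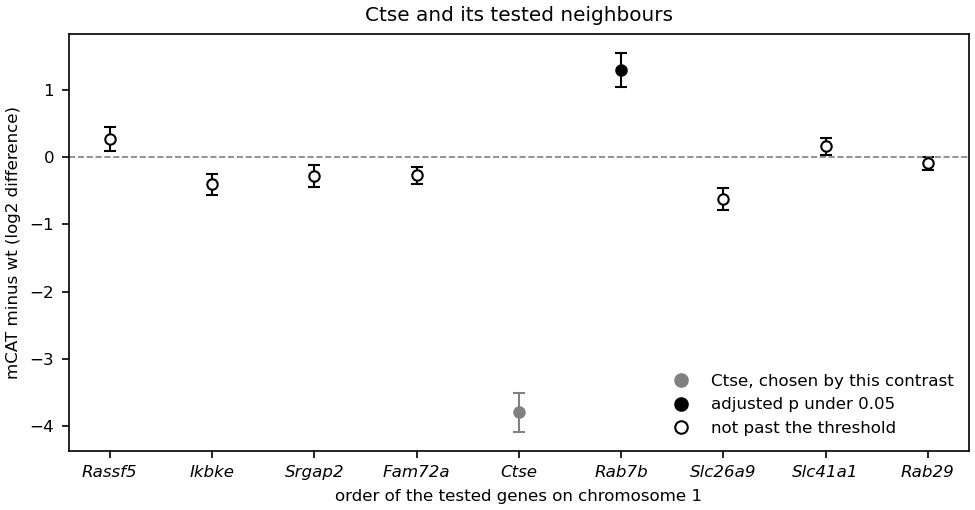
Genotype difference (mCAT minus wt, log2 scale, with SE) of Ctse and its tested neighbours in their order on chromosome 1, without distances. Ctse, chosen by this contrast, is drawn in grey at -3.79 with no mark of a test. Rab7b at 1.30 is filled as past the threshold, and the other 7 genes lie between -0.63 and 0.26.

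Over the 14 libraries the genes whose deposited values followed Ctse most closely were Csrp1 (r = 0.966), Chi3l1 (0.966), Hmgxb4 (0.959), Dynlt1b (0.950) and Cxcr4 (0.926). All 5 were themselves called lower in mCAT, and Csrp1, Chi3l1 and Cxcr4 are on chromosome 1, so that this ranking repeats the genotype difference. With genotype means removed, the closest were Tnfaip3 (r = 0.968), a brake on NF-kappaB signalling, Apobec1 (0.943), an RNA-editing enzyme, the phospholipid transfer protein gene Pltp (0.941), Itm2b (0.940) and the receptor gene Cd300c2 (0.938). None of these 5 was called between genotypes, and all 5 were called higher in C2 than in C1 libraries, as 1.6% of genes were. The difference between C1 and C2 was not removed before this ranking, so that these C2 calls are not separate from that of Ctse. These are descriptions over 14 libraries that share their scaling, with stems shared by pairs.

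The division of the libraries by code was not used to choose the genes, and some cathepsins differed along it. Ctse and Ctsd were called higher in C2 than in C1, 2 of 9, where 2.71% of the 12096 genes were called in either direction and 1.6% higher (limma with genotype as a covariate and stem as a random block). Over all genes the count of 328 called fell to 55 without stem C2_2 and 70 without C2_4, and rose to 1170 without C2_1. All 9 cathepsin estimates were above 0, with a median of 0.64 log2, against a median of -0.01 over all genes tested. Their summed share of normalised counts was 3.66% ± 0.79 (SD, n = 8) in C1 and 5.58% ± 1.04 (SD, n = 6) in C2.

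Ctse was higher in C2 within each genotype. The C1 wt libraries held 2431, 3314, 2334 and 3242 normalised counts and the C2 wt libraries 5291, 6189 and 7255. The mCAT libraries held 161, 110, 123 and 68.9 in C1 and 218, 450 and 308 in C2. Every C2 library exceeded every C1 library of its genotype, as it did for Ctsb among the cathepsins and for 1.98% of the genes tested. The means differed 2.21-fold in wt and 2.81-fold in mCAT, and the fitted difference was 1.05 log2 (SE 0.18, limma adjusted p = 0.00348). That call was lost when both libraries of stem C2_2 (0.95, limma adjusted p = 0.0690) or of stem C2_4 (0.998, adjusted p = 0.0553) were left out, and when each complete stem was averaged (1.02, adjusted p = 0.0698).

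Ctsd showed the largest difference, 1.25 log2 (SE 0.32, limma adjusted p = 0.0407), but not in all stems. In C1 the wt libraries held 114523, 413359, 376202 and 247275 normalised counts and the mCAT libraries 464445, 425531, 274905 and 273558. In C2 the wt libraries held 400277, 755678 and 892569 and the mCAT libraries 392290, 1021850 and 892634. Stems C2_2 and C2_4 stood above every C1 library, and both libraries of C2_1 lay within the range of C1. The Ctsd call was lost under 8 of the 14 single-library omissions (adjusted p up to 0.0946, without wt 7), without stem C2_2 or C2_4 (adjusted p = 0.329 and 0.352), and after quantile normalisation between libraries (0.69, adjusted p = 0.147).

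Ctsb was 0.83 log2 higher in C2 (SE 0.22) and Ctsa 0.64 (SE 0.17), with limma adjusted p = 0.0520 and 0.0571, just short of the threshold. The 8 C1 libraries held 94927 to 282265 normalised counts of Ctsb and the 6 C2 libraries 295644 to 500072, with no overlap, which 1.4% of genes showed. Ctss was 0.68 higher (SE 0.20, adjusted p = 0.0838) and Ctsh 0.38 (SE 0.13, adjusted p = 0.126), and neither was called. For Ctss that value was 0.06 after quantile normalisation, which gives genes of equal rank the same value in every library. For a gene at 0.977% to 2.61% of all normalised counts, a small value is then largely set by the method. Dependence on the scaling between libraries cannot be read from it. The Ctsd value after quantile normalisation has the same limit. Ctsl, a broad endopeptidase, Ctsk and Ctsz differed by 0.18, 0.18 and 0.16, with 95% intervals of -0.30 to 0.66, -0.42 to 0.77 and -0.16 to 0.48. Without wt 1 the values of Ctsl and Ctsk were -0.02 and -0.08.

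**Figure D4:**
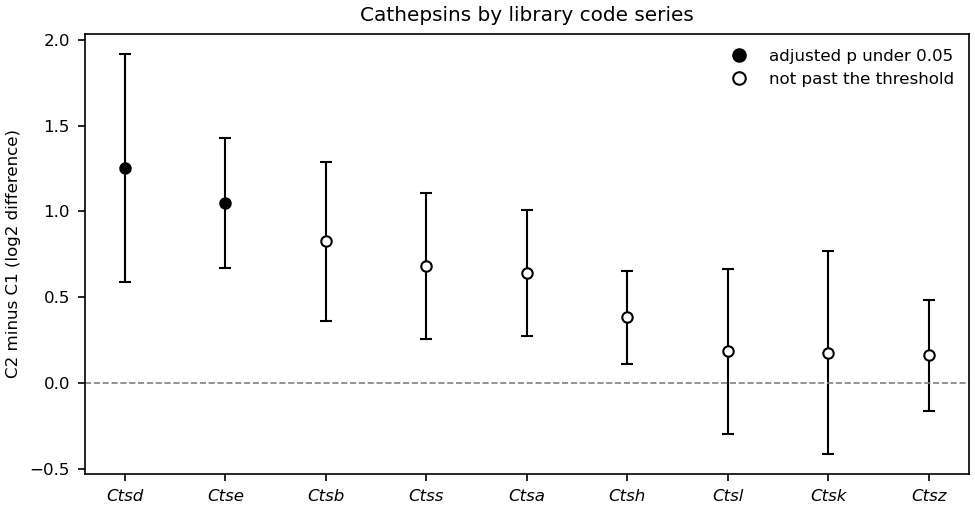
Difference between C2 and C1 libraries (log2 scale, adjusted for genotype) for the 9 cathepsins, with 95% intervals. Ctsd at 1.25 and Ctse at 1.05 are filled as past an adjusted p of 0.05, and the intervals of Ctsl, Ctsk and Ctsz include 0.

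No cathepsin had a genotype difference that was shown to vary with the library code. The interaction was -0.11 for Ctse (95% interval -0.62 to 0.40) and between -0.29 for Ctss and -0.05 for Ctsz in the others, with unadjusted p of 0.258 to 0.805. Limma called 0 of the 12096 genes in this test (0% in the background), while 339 had an unadjusted p under 0.05. For Ctse the sign depended on the scale, with 0.38 on log2 of the normalised count plus 1.

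The cathepsins fell into groups by how they varied between libraries, described here after their values were seen. With genotype means removed, Ctse, Ctsd, Ctsa, Ctsb, Ctsh and Ctss varied together over the 14 libraries, the lowest r among them being 0.83 (Ctsa with Ctsh) and the highest 0.94. The difference between C1 and C2 and the shared stems were not removed. These 6 genes are also those with the larger C2 estimates (0.38 to 1.25, against 0.16 to 0.18 for Ctsk, Ctsl and Ctsz). The grouping is therefore not separate from the result by library code. Ctsk and Ctsl formed a second pair (r = 0.907, rho = 0.679), both highest in the 2 libraries of stem C1_2. In those libraries Ctsl reached 52009 in wt and 58952 in mCAT, against at most 43280 elsewhere. Ctsz followed neither group closely, its highest r being 0.662, with Ctss. All 36 gene pairs had an r above 0 with a median of 0.64, but without wt 1 these became 31 of 36 and 0.328. The group of 6 kept r of 0.805 to 0.916 without wt 1, Ctsk and Ctsl fell to 0.777, and Ctsk with Ctsz turned from 0.380 to -0.247.

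**Figure D5:**
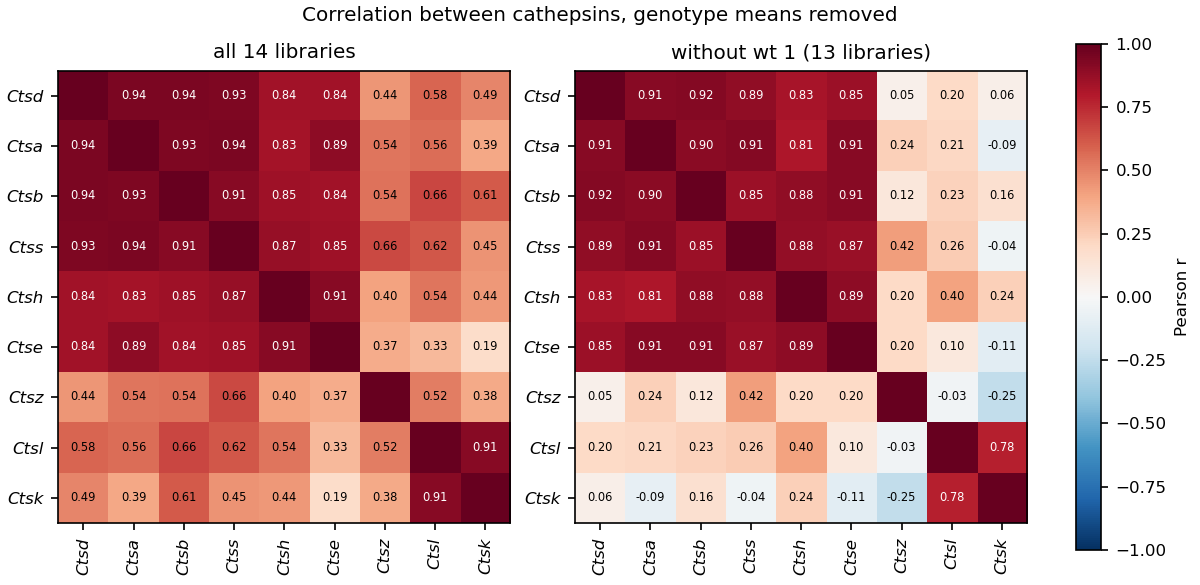
Pearson r between the 9 cathepsins over 14 libraries (left) and over 13 libraries without wt 1 (right), genotype means removed. Ctsd, Ctsa, Ctsb, Ctss, Ctsh and Ctse form a block above 0.8 in both panels, and Ctsl with Ctsk stand apart at 0.91 and 0.78.

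The nearest genes outside the set differed between these groups. Ctsd was followed closely by Gpnmb and Lipa (r = 0.981 and 0.979), which encode a lysosomal glycoprotein and the lysosomal acid lipase. Ctsb was closest to Dhrs3, Enpp1 and the lysosomal membrane gene Cd68 (0.979, 0.972 and 0.971), and Ctsa to Wls, Hfe and Adgre1 (0.974, 0.963 and 0.962). Ctss was closest to Cbx3, Tmem59 and Retsat (0.966, 0.957 and 0.956) and Ctsh to Dynlt2b, Gna12 and Rnase4 (0.952, 0.949 and 0.944). Ctsk had Asb8, Rab28 and Lmna as its nearest genes (0.958, 0.933 and 0.929), Ctsl had Spsb1, Rab28 and Adh5 (0.967, 0.938 and 0.936), and Ctsz had Saraf, Ethe1 and Plrg1 (0.920, 0.895 and 0.887).

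Of 14 other cathepsin genes, 5 were in the table and 4 were tested. Ctsc, the activator of granule serine proteases, averaged 117923 ± 37598 (SD, n = 7) normalised counts in wt and 127246 ± 27760 (SD, n = 7) in mCAT, and its C2 estimate was -0.31, not called. Ctsf was called higher in C2, with 78.2 ± 23.1 (SD, n = 8) in C1 and 241 ± 101 (SD, n = 6) in C2, a difference of 0.94 (SE 0.20, limma adjusted p = 0.0150). Ctso (0.39) was not called. Ctsw, a cathepsin of cytotoxic lymphocytes, was lower in mCAT in 6 of 6 pairs (70.5 ± 41.8 against 26.1 ± 19.9, SD, n = 7 each) and not called. Beside it, the T cell marker Lck was also lower in 6 of 6 pairs, the summed T cell markers ran from 216 to 759 in wt and from 132 to 289 in mCAT, and their part in Ctsw was not tested.

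For the lists that follow, the shares over all 12096 genes were 1.6% called higher and 1.11% called lower in C2, with 5928 estimates above 0. Inhibitors of cathepsins moved in both directions with the library code. Of 6 tested among 14, Ctla2b, an inhibitor of cysteine cathepsins, was called higher in C2 (1.25, SE 0.19, limma adjusted p = 0.00133), and Serpina3g, a serpin that inhibits cysteine cathepsins in lymphocytes, was called lower (-1.17, SE 0.22, adjusted p = 0.00763). Serpina3g was also higher in mCAT in 6 of 6 pairs, with 8532 ± 4064 (SD, n = 7) in wt and 11682 ± 5760 (SD, n = 7) in mCAT, and limma called it with pairs as a block (0.50, adjusted p = 0.00880) but not without (0.46, adjusted p = 0.881). The most abundant inhibitors were the cystatin genes Cstb and Cst3, which were not called in either contrast.

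The machinery that delivers and accompanies cathepsins was mostly not called. Among 12 sorting and activation genes Igf2r, the large mannose 6-phosphate receptor, was called higher in C2 (0.75, SE 0.17, limma adjusted p = 0.0261), and the abundant cofactor genes Psap and Grn were not (0.74 and 0.51). Among 34 other lysosomal hydrolases 3 were called higher in C2, namely Cpq (1.36), Glb1 (0.83) and Hexa (0.80), and none lower. Their median estimate was 0.47, and 32 of 34 lay above 0. Of 23 genes for lysosomal membrane proteins and the proton pump, the tetraspanin gene Cd63 was called (1.56, adjusted p = 0.0187), while Lamp1 (0.45) and Cd68 (0.60) were not, and the median was 0.14. Of 9 regulators, Tfec, a relative of TFEB, was called lower in C2 (-0.61, adjusted p = 0.0222) and Flcn (0.14) was not called. None of 11 MHC class II loading genes, led by H2-Ab1 and Cd74, and neither of the aspartic protease genes tested, Napsa and Bace1, was called. In these 6 lists no gene was called between genotypes with or without the pairs.

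Markers of cell types moved with the library code beside the cathepsins, and their part in the differences was not tested. All 6 tested microglial markers had C2 estimates above 0, and Olfml3 (2.12) and Gpr34 (1.31) were called. P2ry12 averaged 924 normalised counts in C1 and 1236 in C2, and Tmem119 averaged 1598 and 2669. Of the macrophage markers 7 of 9 had estimates above 0, with a median of 0.24, and Ccr2 went the other way (-0.36, not called). Only Lyz2 was called higher (1.43, limma adjusted p = 0.00443). The summed level, in which the most abundant markers weigh most, was 856710 to 1451100 in C1 and 1713300 to 4473100 in C2. Dendritic cell markers had 1 of 9 estimates above 0 and summed to 2981 to 6064 in C1 and 1946 to 4660 in C2. Neutrophil markers had 1 of 6 estimates above 0 with a median of -0.76, Cxcr2 was called lower (-0.68, limma adjusted p = 0.0261), and the sums were 11012 to 40213 in C1 and 10186 to 15524 in C2. For Ctsk, 6 osteoclast markers were at hand, which summed to 6133 to 37249 in wt and 9394 to 30241 in mCAT. Of these, 3 passed the filter (Acp5, Dcstamp and Ocstamp), and none was called. Acp5 averaged 17690 over all libraries, while Calcr was at 0 in 13 libraries and Oscar in 9.

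Several of these genes share exon sequence with a neighbour, and the library kit does not mark strand. In the mouse annotation at hand Ctsd shared 808 exon bases with Gm49369, Ctsb 774 with Fdft1, Ctsa 495 with Pltp and 324 with Neurl2, Ctsl 395 with the pseudogene Gm49230 and 1742 with its antisense gene Gm47123, and Ctsz 10 with Nelfcd. The partners in the table were far lower, with averages of 749 for Fdft1 and 2051 for Pltp, against 278776 for Ctsb and 61164 for Ctsa. Whether Ctsa reads add to the counts of Pltp, named above among the genes closest to Ctse, was not tested. Ctsa itself had r = 0.893 with Ctse, genotype means removed. Ctse, Ctsh, Ctsk and Ctss shared none.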

How the data were processed

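Sorted macrophage libraries (7 wt, 7 mCAT) were made from polyA RNA with Smart-seq2 and sequenced in read pairs, per the labels' protocols. The submitters' processing notes name FastQC, fastp, Salmon and the GRCm39 build, with versions and annotation not given in the sources used here. Log2 values fill the table the authors deposited, titled as raw counts, with the same lowest value (5.964) in all libraries and no whole numbers, the form of a variance-stabilising transformation. Normalised counts were computed by inverting that form, an assumption, and depth was estimated from the steps between low values, of which 57.8% to 79.3% fell within 0.15 of whole reads. The transformation compresses differences at low counts.

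The deposited values were tested with limma 3.58.1 (trend, robust; R 4.3.3, statmod 1.5.0) over the 12096 genes with a normalised count of at least 10 in at least 7 libraries, with Benjamini-Hochberg adjustment at 0.05. Genotype was fitted alone; C2 against C1 with genotype as covariate and the code stem as random block; and their interaction. Library deviations of stem partners correlated (r = 0.232 to 0.659 in 6 of 6 pairs), so that stems, not the title numbers, were used as pairs. Levels per kb used the union of exons in the annotation at hand. Scripts were tested on simulated data.

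Named were all 9 cathepsins, the most correlated genes (5 for Ctse under either measure, 3 for the others), tested neighbours of Ctse, and in each list the genes called in either fit and the 2 most abundant. Of the genes this rule names, 1 is not reported here. Members, lists and markers were chosen with earlier results of these data known. Further genes given as checks (Cat, some cell markers) were chosen after their values were seen. Alternatives were another filter, quantile normalisation, a pseudocount of 1, no trend, other blocks, and leaving out libraries or stems.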

Additional observations from a re-analysis of the deposited data

Results flagged for a closer look

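Among the 18 groups of 7 libraries formed by the 9 cathepsins and both genotypes, 1 held a library far from the rest, where chance alone marks about 1 in 20. Ctsl in wt 1 stood at 16416 normalised counts and the next wt library at 33257, a gap of 0.612 of the group's range, above Dixon's 95% critical value for 7 libraries. The same library was the lowest wt library for Ctsd, Ctsa, Ctsb, Ctsh, Ctsk, Ctss and Ctsz.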

How the results depend on the processing

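The Ctse genotype difference, a description, ran from -4.50 (log2 of the normalised count plus 1, which moved most) to -3.65 over 22 alternatives. Genes called between genotypes numbered 24 (10 higher, 14 lower), 39 (20 higher, 19 lower) with the library code stem as a block, 25 with the title number as a block, and 18 to 25 with single libraries left out. With stems as a block the Ctse difference was -3.85. Between C1 and C2, 328 genes were called, against 903 with no block, 17 with complete stems averaged, 186 to 507 without single libraries and 55 to 1170 without single stems, the last chosen after seeing the data. Of 29 alternatives, Ctse kept its C2 call in 26, Ctsd in 14, and Ctsb, Ctsa and Ctss, which missed the threshold in the report, were called in 8, 7 and 2. These tallies count some fits again, since leaving out stem C1_1 or C1_4 is the same as leaving out wt 1 or mCAT 3. Averaging complete stems turned Ctsl to -0.107 and Ctsk to -0.251, and leaving out wt 1 (stem C1_1) turned them to -0.0196 and -0.0793; without stem C1_2 they were 0.379 and 0.376. The interaction changed sign, with no call, for Ctse at 0.377 on the pseudocount scale and for Ctsz at 0.000168 with the replicate block; without single libraries it ran from -0.305 to 0.0279 for Ctse, -0.439 to 0.0692 for Ctsd, -0.186 to 0.0348 for Ctsz, -0.362 to 0.118 for Ctsk and -0.146 to 0.000982 for Ctsh. The causes were not tested. The 6 to 8 libraries of each code series, from 3 and 5 stems, limit the precision of that comparison, and the depth of the low Ctse counts in mCAT is an estimate.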
